A study of Mus musculus with 25 samples.

Results

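The luminal and basal keratins described here are 10 keratin genes of mouse Ep5 (EpRas) mammary tumour cells, followed through culture with and without platelets. They were chosen by symbol: Krt5, Krt14, Krt15 and Krt17 as the 4 basal keratins, Krt7, Krt8, Krt18 and Krt19 as the 4 luminal keratins, and Krt6a and Krt23, which belong to neither class. Each gene was read from a probe set that carries its symbol alone, the brightest on average for Krt8, which had 2 on the exon arrays. This gave 8 of the 10 keratins among 18997 genes on the exon arrays, where Krt7 and Krt6a share their probe sets with other symbols, and 10 of 10 among 19938 genes on the gene arrays.

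Keratins are the intermediate filament proteins of epithelial cells. A filament is built from pairs of one acidic (type I) and one basic (type II) keratin, and the pairs differ by cell layer. In the mammary gland the luminal cells that line the duct carry the pairs of simple epithelia, chiefly Krt8 with Krt18 and, with them, Krt7 and Krt19. The outer basal or myoepithelial cells carry Krt5 with Krt14, together with Krt15 and Krt17. Krt6a and Krt16 are known as stress and wound keratins of stratified epithelia.

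The exon arrays hold 13 samples of Ep5 cells, and the gene arrays hold 12 samples of the same line. All cells were grown in DMEM with serum, and both the cells and the added wild-type platelets are given as C57BL/6 in the labels. Of the exon samples, 5 are untreated cells, 5 spent 24 h in culture with platelets (about 1000 per cell), and 3 are cells that met the same number of platelets only at lysis, so that platelet RNA is present without culture. On the gene arrays 3 samples each are untreated cells and 24 h cultures with platelets (about 1000 per cell), with a platelet pellet or with platelet releasate. The pellet is that of thrombin-treated and centrifuged platelets, and the releasate is the fluid of that spin. Ep5 is 1 established line carrying an activated Ras, and the labels do not say whether samples of a group came from separate cultures. All p-values therefore measure the spread between these samples, which may be technical. Values are RMA levels on the log2 scale, and differences are in log2 units with the standard error of the limma fit. A gene was called where its p-value, adjusted over all genes of its array type by the method of Benjamini and Hochberg, was under 0.05.

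Array medians were 3.62 to 3.90 for exon arrays and 5.56 to 5.63 for gene arrays, with a precision limited by how many arrays each group has. All 6 mammary epithelial markers (Epcam, Cdh1, Krt8, Krt18, Cldn3 and Cldn7) lay above the array median in every group of both array types. Krt8 and Krt18 are also among the keratins described here, so this list is not separate from them. Of 14 basal identity genes, 6 lay above it in every exon array group and 8 (Trp63, Acta2, Myh11, Cnn1, Tagln, Oxtr, Mme and Cdh3) below it, while 4 of 14 lay above it in the gene array groups. Of 18 luminal identity genes, 12 lay above it in every exon array group, with Elf5, Pgr, Kit, Muc1, Aldh1a3 and Ltf below it. On the gene arrays 10 of 19 luminal identity genes lay above it in every group. The mean of 15 platelet markers was 3.58 to 3.80 in cells alone, 5.35 to 5.67 in the lysis mix and 4.50 to 6.31 in the cultures with platelets. On the gene arrays the mean of 13 platelet markers was 5.47 to 5.56 alone, 5.39 to 5.44 with releasate, 5.77 to 5.85 with the pellet and 5.85 to 5.93 with platelets. Of the gene arrays, alone 8 and platelets 9 carry a platelet description that goes against their source name. They were kept by source name, and values without them are given beside the Krt14 and Ppl results on the gene arrays.

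The line carried the luminal keratins Krt7, Krt8 and Krt18 together with the basal keratin Krt14. Krt8 and Krt18 lay far above the array median on all arrays of both types, as did Krt7 on all 12 gene arrays. Among the basal keratins, Krt14 lay above the median on all 13 arrays of the first type and all 12 of the other. Krt17 lay above it on 13 of 13 exon arrays but on 0 of 12 gene arrays, and Krt5, the usual partner of Krt14, on 5 of 13 and 0 of 12. Krt15, Krt19 and Krt23 were under the median on every array of both types, and Krt6a on every gene array. Levels of different genes were not ranked, since each probe set has its own brightness.

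Krt14, the type I keratin of basal cells, rose when platelets were in the culture. Its probe set on the exon arrays reads a gene at chr11:100203162-100207510 (GRCm38.p6). The levels in the 5 samples of cells alone were 10.54, 10.01, 10.34, 10.86 and 11.17, and those in the 3 lysis mixes were 10.85, 10.82 and 10.15. The 5 cultures with platelets gave 11.72, 11.63, 11.64, 11.99 and 11.93. Every culture with platelets lay above every sample of cells alone and above every lysis mix, while the lysis mixes lay among the cells alone. The lysis mixes carry the numbers 4 to 6, and all lay below alone 4 and 5, at 10.86 and 11.17. Cells alone numbered 1 to 3 lay lower, at 10.54, 10.01 and 10.34. In such bulk RNA, more Krt14 per cell and more cells with Krt14 cannot be told apart. The group means were 10.59 ± 0.45 (SD, n = 5) alone, 10.61 ± 0.40 (SD, n = 3) at lysis and 11.78 ± 0.17 (SD, n = 5) with platelets.

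The difference of platelets over cells alone was 1.20 ± 0.20 on the log2 scale, a 2.29-fold higher level (95% interval of the log2 difference 0.75 to 1.64, adjusted p = 0.00414). Over the lysis mix it was 1.18 ± 0.24 (0.66 to 1.69, adjusted p = 0.0141). The lysis mix and cells alone differed by 0.02 ± 0.24 (-0.49 to 0.54, adjusted p = 0.995), although the platelet markers were higher in the lysis mix. Over 18 alternative fits this lysis difference ran from -0.41 to 0.27, changed sign in 7 and was called in 0. The first pair of comparisons shares the cultures with platelets. Krt14 was the 1 keratin of 8 measured that was called in either, against 4.55% of all genes called in platelets over alone and 3.68% in platelets over lysis. In platelets over alone it was also the 1 keratin of 8 whose groups did not overlap, against 5.51% of all genes. In lysis over alone, where 0.0474% of all genes were called, 0 of 8 keratins were called by limma and 0 of 8 had an unadjusted p under 0.05. Within the samples numbered 1 to 3 the Krt14 difference of platelets over alone was 1.36 (adjusted p = 0.00353), and within those numbered 4 and 5 it was 0.95 (adjusted p = 0.298). Without lysis sample 6 the difference over the lysis mix was 0.95 (adjusted p = 0.0887).

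**Figure D1:**
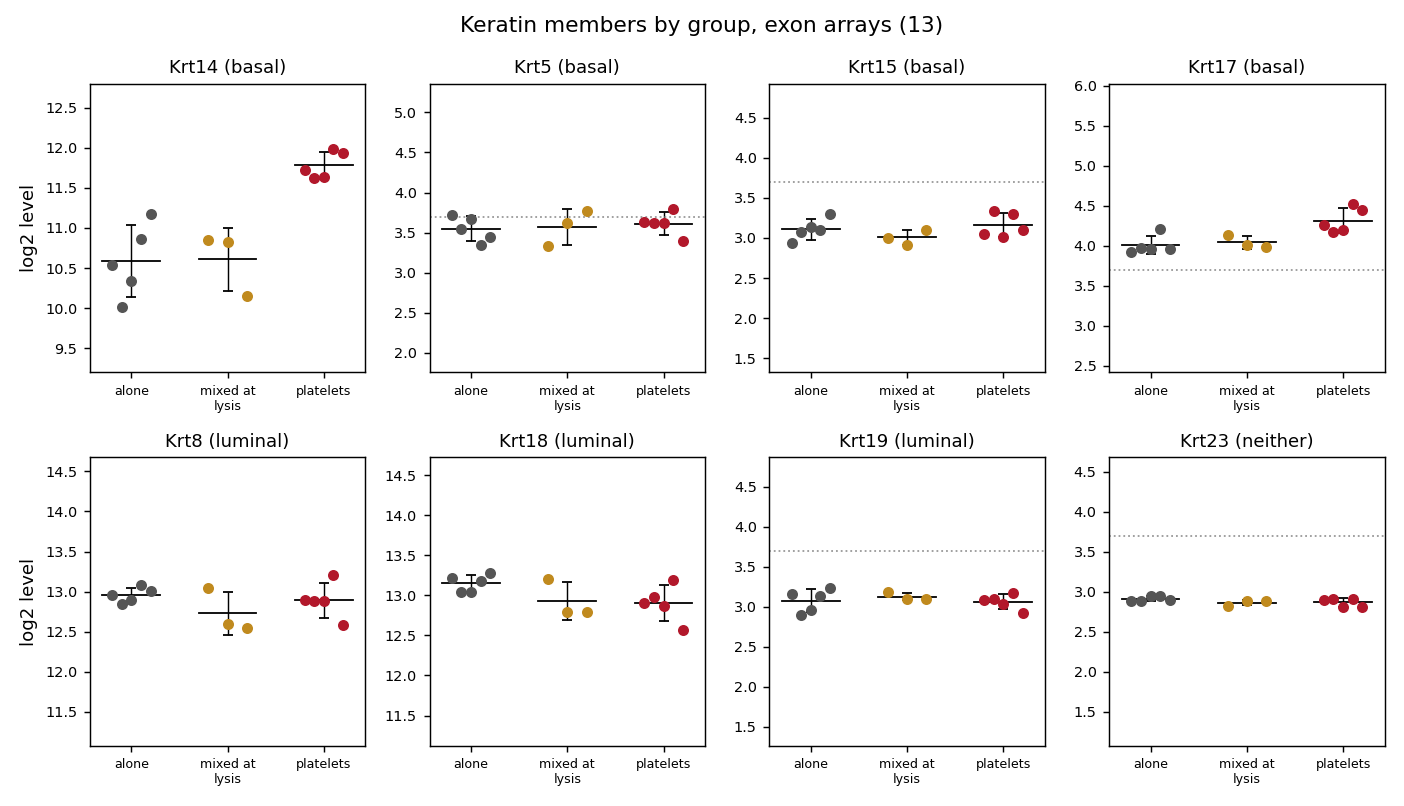
Log2 levels of the 8 keratins measured on the exon arrays, 1 panel per gene, with 1 point per array, a black bar for the group mean and an error bar for the SD, for cells alone (n = 5), platelets added at lysis (n = 3) and culture with platelets (n = 5). The dotted line, drawn where it falls inside a panel, is the median over arrays of the array medians, and all panels span the same range of log2 units. Krt14 with platelets sits between 11.63 and 11.99, above the highest sample of cells alone at 11.17.

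The gene arrays separate whole platelets, their pellet and their releasate. Krt14 had its highest mean with whole platelets, though pellet 8 lay above platelets 7 and 8. The levels in cells alone were 7.19, 7.63 and 7.40 for replicates 7, 8 and 9, and those with releasate were 7.26, 7.96 and 8.15. With the pellet they were 7.97, 9.69 and 9.54, and with platelets 9.09, 9.50 and 10.26. All arrays with platelets or the pellet lay above all arrays of cells alone, and the releasate arrays overlapped with cells alone. Pellet 7 stood apart from the other pellet arrays and lay inside the range of the releasate arrays.

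Platelets over cells alone gave a Krt14 difference of 2.21 ± 0.43 (1.27 to 3.16, adjusted p = 0.0461), a 4.64-fold higher level. It was the 1 keratin of 10 called, against 0.667% of all 19938 genes (133 genes, or 454 genes with the replicate number as a block, where Krt14 has an adjusted p of 0.00287). This call was close to the threshold: leaving out any 1 of the 6 arrays gave differences of 1.89 to 2.48 with adjusted p-values of 0.0520 to 0.188, and leaving out alone 8 and platelets 9 gave 2.00 (adjusted p = 0.181).

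With the pellet, Krt14 was 1.66 ± 0.43 above cells alone (0.72 to 2.60) and did not pass the test (adjusted p = 0.149), although the arrays did not overlap. Krt17 was the other of 2 keratins out of 10 without overlap, against 15.9% of all genes. Of all genes 0.416% were called in that comparison. Without pellet 7 the difference was 2.21 and was called (adjusted p = 0.0151), and without alone 8 and platelets 9 it was 1.77 (adjusted p = 0.179). It was also called with the replicate number as a block (adjusted p = 0.0135) and with array weights (0.00515). The numbers were not taken to pair these groups: the deviations of pellet 7 and alone 7 from their group means had a correlation of -0.0374. With releasate the difference was 0.38 ± 0.43 (-0.56 to 1.32, adjusted p = 1.00). It was 0.65 without releasate 7, 0.20 without releasate 9 and 0.49 without alone 8. The releasate array was the higher in all 3 replicate pairs, and with the replicate number as a block the adjusted p was also 1.00. In that comparison 0 of 10 keratins and 0% of all genes were called by limma, with 0 keratins and 563 of 19938 genes at an unadjusted p under 0.05.

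In direct comparisons of the treated groups no Krt14 difference passed the test in the fit without a replicate block. The means ran from 7.41 ± 0.22 alone to 7.79 ± 0.47 with releasate, 9.07 ± 0.96 with the pellet and 9.62 ± 0.59 with platelets (SD, n = 3 each), and no pair of neighbours in this order passed the test. Platelets were 1.83 ± 0.43 above releasate (0.89 to 2.77, adjusted p = 0.221) with no overlap between arrays, and Krt17 and Krt8 did not overlap either (3 of 10 keratins, against 11.3% of all genes). Without alone 8 and platelets 9 the Krt14 difference was 1.51 (adjusted p = 0.581). The pellet was 1.28 ± 0.43 above releasate (0.34 to 2.22, adjusted p = 0.686), with overlap, while Krt17 lay higher and Krt18 lower without overlap (2 of 10 keratins, against 10.2% of all genes). Platelets were 0.55 ± 0.43 above the pellet (-0.39 to 1.49, adjusted p = 0.974). That value rested on single arrays: it was 0.0036 without pellet 7, 0.23 without platelets 9 and 0.87 without pellet 8, and -0.13 with array weights. Of all genes 0.0451%, 0.00502% and 0% were called in these comparisons, and 0 of 10 keratins in each by limma. At an unadjusted p under 0.05 there were 1, 1 and 0 of 10 keratins, and 1320, 1139 and 503 of 19938 genes. These comparisons and those with cells alone share arrays, so they are not separate evidence.

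**Figure D2:**
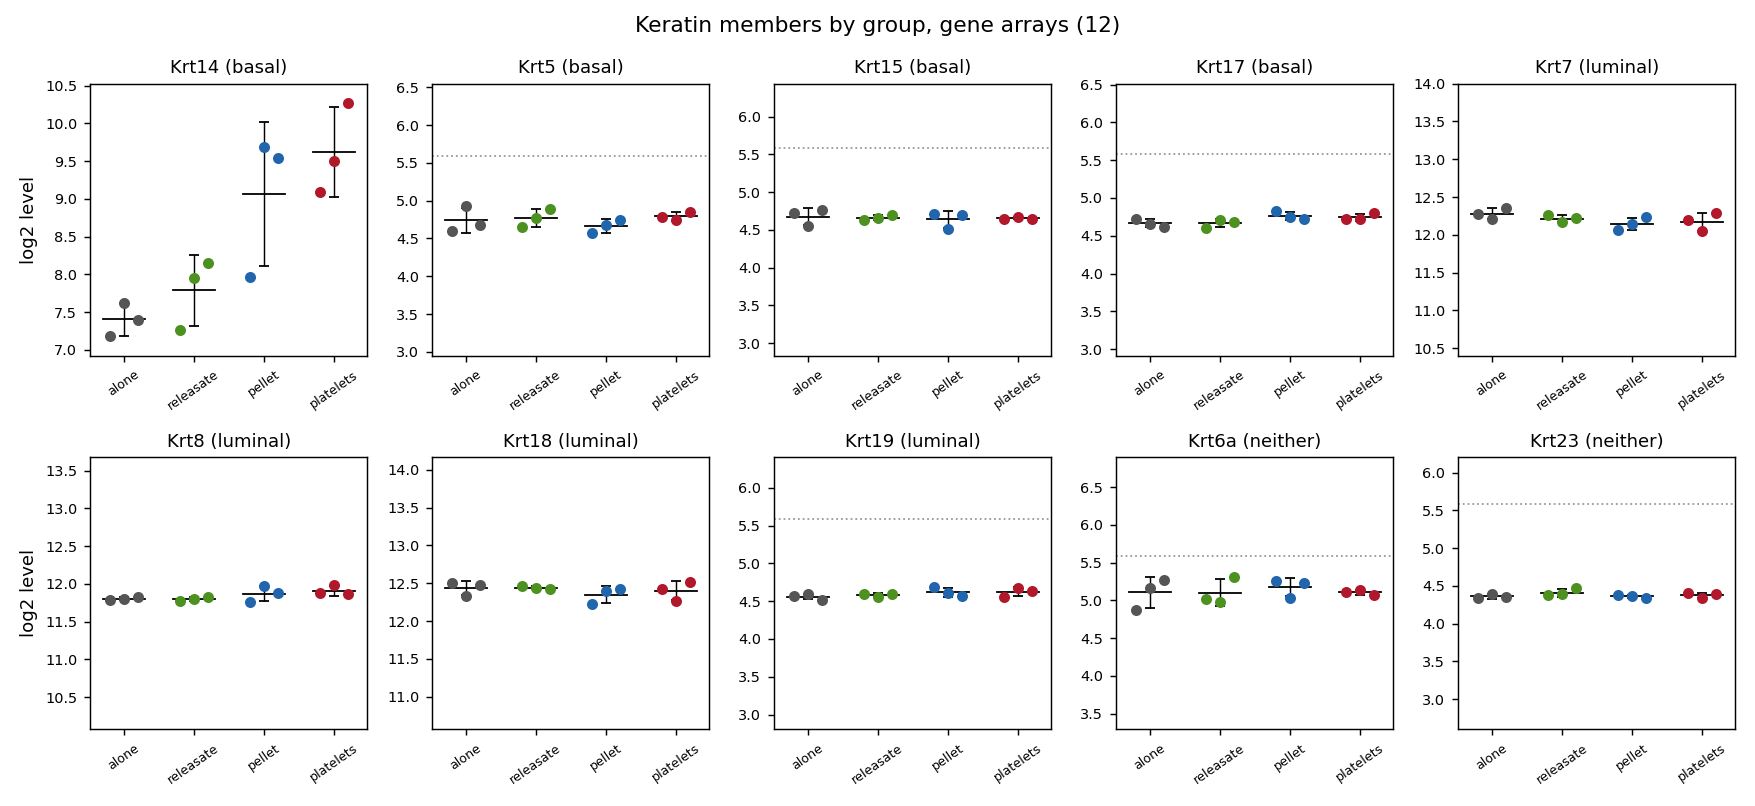
Log2 levels of the 10 keratins on the gene arrays, drawn as in the plot for the exon arrays, for cells alone, releasate, pellet and platelets (n = 3 each). Krt14 spans 7.19 to 7.63 alone and 9.09 to 10.26 with platelets, and pellet 7 lies at 7.97, away from the other pellet arrays at 9.69 and 9.54.

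None of the other basal keratins was called in any comparison in the fit of all arrays without weights or a block. Krt17, a type I keratin of basal and injured epithelium encoded near Krt14 at chr11:100256215-100261029, read 3.93, 3.97, 3.96, 4.21 and 3.96 on the exon arrays of cells alone. With platelets it read 4.26, 4.17, 4.19, 4.52 and 4.44, and at lysis 4.14, 4.01 and 3.99. The arrays with platelets lay above the lysis mixes, and above all cells alone but sample 4. The difference of platelets over alone was 0.31 ± 0.09 (0.12 to 0.50) and did not pass the test (adjusted p = 0.0653). Without alone 4 it was 0.36 and did (adjusted p = 0.0347). Over the lysis mix it was 0.27 ± 0.10 (adjusted p = 0.201). Krt14 and Krt17 were thus 2 of 8 keratins whose platelet and lysis groups did not overlap, both higher with platelets, against 11.7% of all genes in either direction. Krt17 on the gene arrays lay between 4.61 and 4.82 in all groups.

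Krt5, the type II partner of Krt14 in basal cells (chr15:101707069-101712905), did not pass in any comparison. It ranged from 3.33 to 3.79 over the 13 exon arrays, and platelets over alone gave 0.07 ± 0.10 (-0.16 to 0.29). Krt15, a type I keratin of basal and progenitor cells, had group means of 3.01 to 3.16 on exon arrays and 4.64 to 4.68 on gene arrays. The medians of the 4 basal keratins' differences were 0.19 for platelets over alone on exon arrays and 0.07 on gene arrays, beside 0.00 over all genes in both. With Krt14 left out, the mean of the other 3 basal keratins, set against its mean in cells alone, was 0.06 to 0.32 above on the exon arrays with platelets and 0.01 to 0.07 for the gene arrays.

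The luminal keratins Krt7, Krt8 and Krt18 were high in every group, Krt19 was under the array median, and none of the 4 was called by limma in any comparison in which it was measured. With array weights Krt8 was called for platelets over lysis (0.25, adjusted p = 0.0485). Krt8, the type II keratin of simple epithelia (chr15:101996711-102004342), read 12.95, 12.85, 12.89, 13.08 and 13.01 alone and 12.89, 12.89, 12.88, 13.21 and 12.59 with platelets on the exon arrays. At lysis it read 13.04, 12.60 and 12.54. The 3 groups overlapped, and platelets over alone gave -0.07 ± 0.12 (-0.33 to 0.19, adjusted p = 0.948). Gene array levels of Krt8 were 11.79, 11.80 and 11.83 alone and 11.88, 11.98 and 11.86 with platelets. These arrays did not overlap, but the difference was 0.10 ± 0.06 (-0.03 to 0.23, adjusted p = 0.683). With Krt14, this made 2 of 10 keratins whose groups did not overlap, against 16.1% of all genes.

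Krt18, the type I partner of Krt8 encoded beside it (chr15:102028216-102032026), read 13.22, 13.04, 13.05, 13.18 and 13.28 alone and 12.90, 12.98, 12.86, 13.19 and 12.57 with platelets. At lysis it read 13.21, 12.79 and 12.79. The platelet arrays lay mostly below the cells alone but overlapped with them, and the lysis mixes spanned nearly the same range as the platelet arrays. Platelets over alone gave -0.25 ± 0.12 (-0.51 to 0.00, adjusted p = 0.385), and lysis over alone -0.22. The 4 group means of Krt18 on the gene arrays lay between 12.35 and 12.44.

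Krt7, a type II keratin of ductal epithelium, was measured on the gene arrays only. It read 12.27, 12.21 and 12.36 alone, 12.26, 12.17 and 12.22 with releasate, 12.06, 12.14 and 12.23 with the pellet and 12.19, 12.05 and 12.28 with platelets. These groups overlapped, and platelets over alone gave -0.10 ± 0.07 (-0.26 to 0.05, adjusted p = 0.754). Krt19, a type I keratin of luminal cells encoded beside Krt15, had group means of 3.06 to 3.13 on exon arrays and 4.56 to 4.62 on gene arrays. Over the luminal keratins the 95% intervals of platelets over alone ran from -0.51 to 0.19 (exon) and from -0.26 to 0.23 (gene).

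Krt6a, a type II keratin of stressed stratified epithelium, had group means of 5.10 to 5.17 on the gene arrays. Krt23, a type I keratin, had group means of 2.86 to 2.91 on exon arrays and 4.36 to 4.41 on gene arrays. Neither was called in any comparison in which it was measured.

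**Figure D3:**
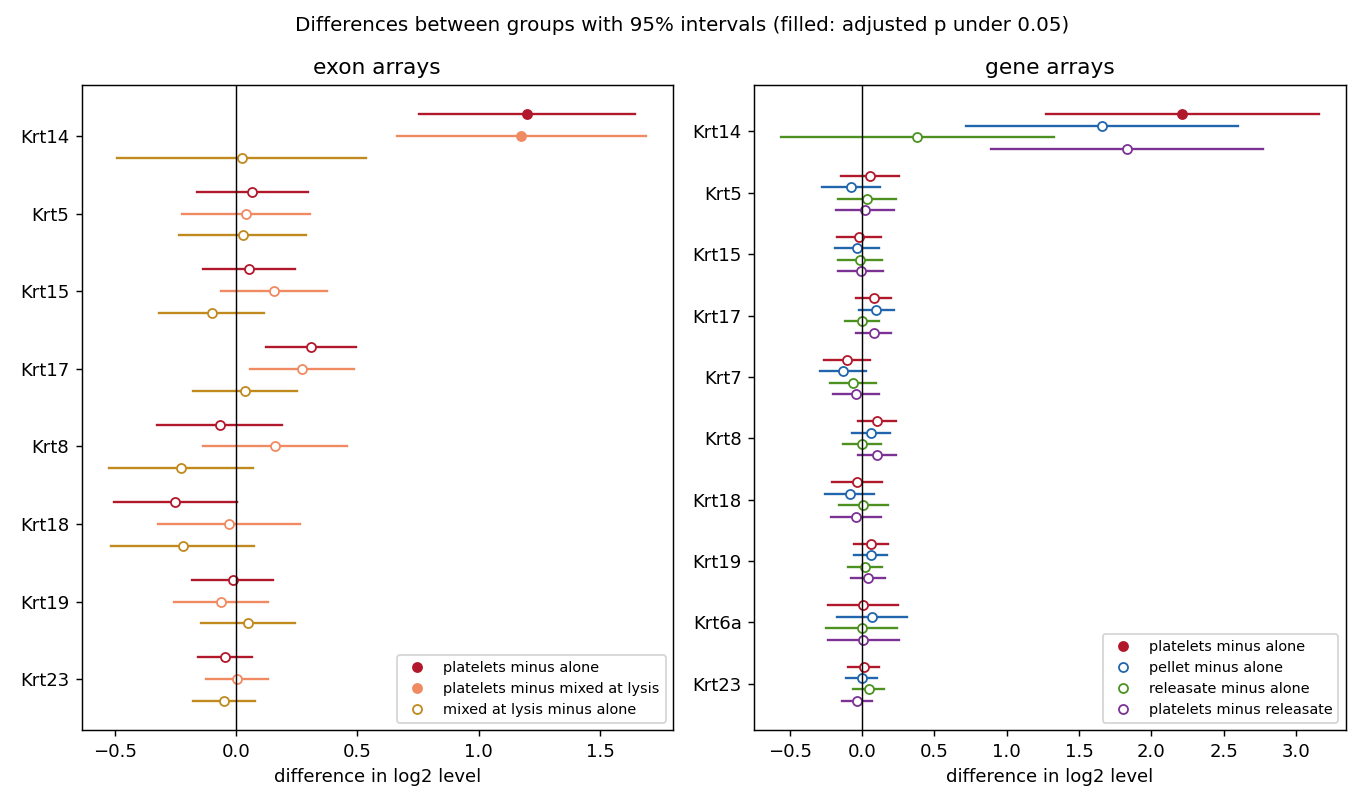
Log2 differences of the keratins in the comparisons with cells alone, the lysis mix and, for platelets, the releasate, as points with 95% intervals from the limma fit; filled points have an adjusted p under 0.05. The filled points are those of Krt14 for platelets over alone on both array types (1.20 and 2.21) and for platelets over lysis (1.18). The points of the luminal keratins lie between -0.25 (Krt18, platelets over alone, exon arrays) and 0.16 (Krt8, platelets over lysis, exon arrays).

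The balance of the classes was set out array by array as the mean shift of the 4 basal keratins minus that of the luminal keratins, each against its mean in cells alone. This is a description and was given no test. For the exon arrays it was -0.08 to 0.06 in cells alone, -0.06, 0.26 and 0.19 at lysis, and 0.46, 0.45, 0.44, 0.46 and 0.78 with platelets. The arrays with platelets lay above all others. For the gene arrays it was -0.08, 0.11 and -0.03 alone, -0.09, 0.18 and 0.24 with releasate, 0.23, 0.53 and 0.55 with the pellet, and 0.45, 0.56 and 0.72 with platelets. The shift holds both classes: on the exon arrays the luminal mean of platelets 5 lay 0.37 below cells alone, with Krt14 1.35 above. In platelets 1 to 4 the luminal shifts were smaller, at -0.10, -0.08, -0.14 and 0.13, beside Krt14 shifts of 1.14, 1.04, 1.05 and 1.41. The luminal means of lysis 5 and 6 lay 0.23 and 0.25 below cells alone, and that of lysis 4 lay 0.08 above. On the gene arrays the luminal shifts with platelets 7, 8 and 9 were -0.01, -0.03 and 0.05.

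**Figure D4:**
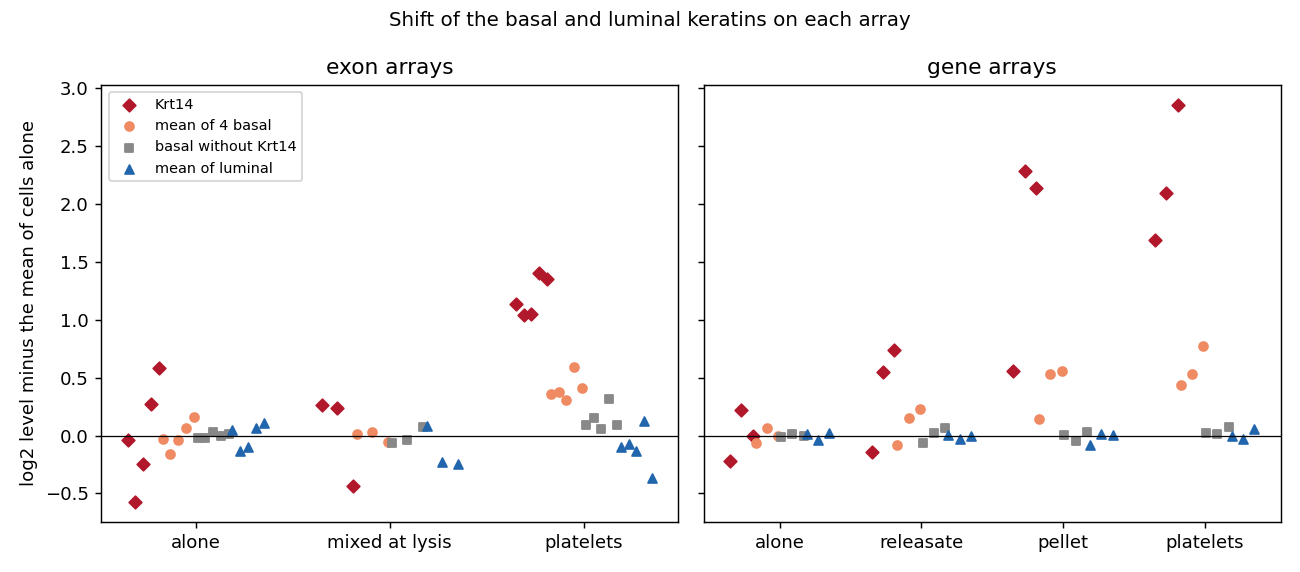
Shift of each array from the mean of cells alone, in log2 units, for Krt14 (diamonds), the mean of the 4 basal keratins (circles), the basal keratins without Krt14 (squares) and the mean of the luminal keratins (triangles; 3 on the exon arrays, 4 on the gene arrays). With Krt14 left out, the basal mean with platelets lies 0.06 to 0.32 above cells alone on exon arrays and 0.01 to 0.07 on gene arrays.

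The sequences around an annotated start of Krt14, the keratin that was called, and of Krt8 and Krt18, the luminal pair that was not, are shown for reference. They are RefSeq windows (GRCm38.p6) of 300 bases, 250 before to 50 after a gene's start, and 6 of the 10 keratins have one. The Krt14 window is chr11:100205981-100206280 on the minus strand and lies inside the annotated span of the gene, so its start is not the outermost one. The Krt8 window is chr15:102004293-102004592 on the minus strand, and the Krt18 window is chr15:102027966-102028265 on the plus strand. Capitals mark matches on either strand to TATAAA, the core promoter box bound by the TATA-binding protein, and to CAGAC, a Smad box.
Krt14: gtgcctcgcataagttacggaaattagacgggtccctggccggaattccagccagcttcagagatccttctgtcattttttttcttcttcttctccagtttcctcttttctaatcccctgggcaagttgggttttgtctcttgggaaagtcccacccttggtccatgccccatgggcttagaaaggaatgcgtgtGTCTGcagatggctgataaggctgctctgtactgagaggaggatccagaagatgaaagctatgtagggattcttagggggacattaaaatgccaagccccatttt
Krt8: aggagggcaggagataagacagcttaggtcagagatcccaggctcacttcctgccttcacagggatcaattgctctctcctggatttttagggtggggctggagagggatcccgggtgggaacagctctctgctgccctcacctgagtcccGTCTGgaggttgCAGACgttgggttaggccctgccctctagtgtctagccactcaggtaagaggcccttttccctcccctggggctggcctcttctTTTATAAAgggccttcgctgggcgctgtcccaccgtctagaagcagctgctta
Krt18: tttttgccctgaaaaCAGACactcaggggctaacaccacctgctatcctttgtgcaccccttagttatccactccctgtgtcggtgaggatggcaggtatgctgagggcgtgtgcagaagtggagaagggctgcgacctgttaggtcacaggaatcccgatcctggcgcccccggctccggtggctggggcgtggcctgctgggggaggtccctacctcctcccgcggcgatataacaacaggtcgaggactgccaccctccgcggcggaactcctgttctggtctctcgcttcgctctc
Krt14 and Krt18 hold 1 CAGAC match each. Krt8 holds 2, and 2 TATAAA matches that overlap each other on opposite strands. These TATAAA matches begin at positions -3 and -1 from the annotated start and run across it. None of the 3 windows holds TGANTCA (AP-1) or GGGCGG (GC box), and no match of one motif overlaps another motif. Of 32851 windows of this kind, 49.6% hold CAGAC, 13.6% TATAAA, 7.81% TGANTCA and 35.7% GGGCGG. A match describes letters only and is not evidence of binding.

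Outside the 10 keratins, Krt16 was the 1 keratin called among 37 more measured on the exon arrays, for platelets over alone and over lysis, against 4.55% and 3.68% of all genes. Krt16, a type I stress keratin encoded between Krt14 and Krt17 (chr11:100246091-100248902), read 5.48, 5.33, 5.51, 5.91 and 6.60 alone, 6.02, 6.51 and 5.64 at lysis, and 7.12, 7.40, 7.50, 8.14 and 9.04 with platelets. All arrays with platelets lay above all others. The difference was 2.07 ± 0.35 over alone (adjusted p = 0.00406) and 1.79 ± 0.41 over lysis (adjusted p = 0.0289). The second was lost without platelets 4 (adjusted p = 0.0585), lysis 4 (0.0847) or lysis 6 (0.153). It was also lost with only the 2 groups compared (0.0642) and with only numbers 4 to 6 (0.0723). Gene array levels of Krt16 were 4.68, 4.92 and 4.73 alone and 5.12, 5.97 and 5.67 with platelets, without overlap. The difference there was 0.81 ± 0.29 (adjusted p = 0.333, or 0.0188 with the replicate number as a block). With the pellet it was 0.45 ± 0.29 and with releasate 0.19. In the plain fit 0 of 42 further keratins were called on the gene arrays in any comparison by limma. Krt14, Krt16 and Krt17 are close relatives in sequence, and whether their probe sets read each other's transcripts was not tested.

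**Figure D5:**
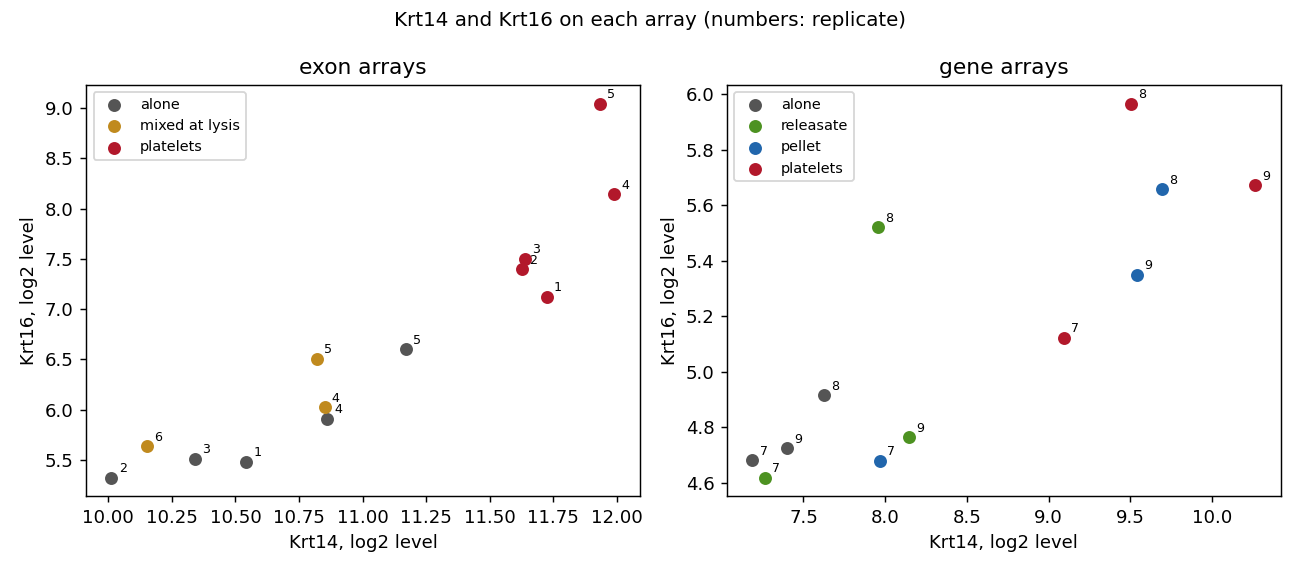
Log2 level of Krt16 against that of Krt14 on the exon arrays (13) and the gene arrays (12), 1 point per array, coloured by group and numbered by replicate. On the exon arrays the cultures with platelets hold the upper right, with Krt14 from 11.63 and Krt16 from 7.12.

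Across arrays the levels of Krt14 and Krt16 had a Pearson correlation of 0.929 over the 13 exon arrays and 0.825 over the 12 gene arrays. Krt14 with Krt17 gave 0.828 and 0.581, and Krt14 with its partner Krt5 gave -0.0704 and 0.270. The pair Krt8 and Krt18 gave 0.863 on exon arrays and -0.158 on gene arrays, where Krt7 and Krt18 gave 0.849. The arrays fall into treatment groups and share normalization; the values describe group differences as well as the genes. Of 17483 genes on both array types, the 5 whose lower correlation with Krt14 was highest were Acpp (0.920 exon, 0.941 gene), Pxdn (0.910, 0.959), Tnfrsf21 (0.916, 0.907), Sema4f (0.908, 0.907) and Ltbp2 (0.911, 0.906). For Krt8 they were Fdps (0.787, 0.853), Efcab3 (0.786, 0.809), Prpf19 (0.768, 0.798), Osgep (0.794, 0.738) and Actb (0.721, 0.770).

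Genes that attach keratin filaments to junctions and cytoskeleton were followed as a list of 12, all measured. On the exon arrays with platelets over alone, Ppl (periplakin, a plakin that links keratins to desmosomes) fell by 2.17 ± 0.32 (adjusted p = 0.00145) and Pkp1 (plakophilin 1, a desmosomal plaque protein) rose by 0.46 ± 0.10 (adjusted p = 0.0163). The other 10 were not called, so that 2 of 12 were, against 4.55% of all genes, and the list's median was -0.10 beside 0.00 over all genes. Against the lysis mix Ppl fell by 2.35 ± 0.37 (adjusted p = 0.00318). Ppl was not called over lysis with only numbers 4 to 6 (adjusted p = 0.0752), nor over alone with only numbers 4 and 5 (0.270). In the gene arrays Ppl fell by 1.02 ± 0.16 with platelets (adjusted p = 0.0176) and by 1.05 ± 0.16 with the pellet (adjusted p = 0.0239), the 1 of 12 called in each, against 0.667% and 0.416% of all genes. Both gene array calls were lost on leaving out 1 array, without platelets 8 or any of alone 7, 8 and 9 in the first and without pellet 8, pellet 9 or any of the 3 alone arrays in the second, with adjusted p-values of 0.0525 to 0.128. Without alone 8 and platelets 9 the adjusted p-values were 0.0746 and 0.0580. With releasate Ppl was -0.28 ± 0.16 from cells alone, which did not pass.

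Genes of basal identity, 14 of 15 measured, were called in 1 case for platelets over alone, against 4.55% of all genes, and in 1 over lysis, against 3.68%. Lama3, a laminin chain of the basement membrane, rose by 0.45 ± 0.07 on the exon arrays with platelets over alone (adjusted p = 0.00129), and the other 13 were not called. The median of the list was 0.00. Trp63, the transcription factor of basal cells, gave -0.02 ± 0.08 at a level under the array median. Against the lysis mix Lama3 rose by 0.33 ± 0.08 (adjusted p = 0.0311), a call lost on leaving out platelets 2, 4 or 5 or lysis 4 or 5 (adjusted p 0.0511 to 0.132), with a filter on dim genes (0.0730) and with the trended and robust variance prior (0.221). In the gene arrays 0 of 14 were called in any comparison.

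Genes of luminal identity went both ways. The exon arrays measured 18 of 20, of which 2 rose and 3 fell with platelets over alone, against 2.07% and 2.47% of all genes. Gata3, the transcription factor of luminal cells, fell by 1.24 ± 0.15 (adjusted p = 0.000314). The epithelial factor Elf3 fell by 1.40 ± 0.26 (adjusted p = 0.00681), and Esr1, the oestrogen receptor, by 0.59 ± 0.13 (adjusted p = 0.0210). The epithelial factor Ehf rose by 1.57 ± 0.29 (adjusted p = 0.00717), and the tight junction gene Cldn4, the remaining call, by 0.45 ± 0.09 (adjusted p = 0.0115). The Esr1 call was lost on leaving out alone 2, 3 or 5 or platelets 4 or 5 (adjusted p 0.0501 to 0.0593) and with quantile normalization repeated (0.276). Against the lysis mix Ehf and Cldn4 rose and Elf3 and Gata3 fell. Without lysis 6 the calls of Ehf, Elf3 and Cldn4 were lost, as were those of Ehf and Elf3 without lysis 5 and that of Cldn4 without lysis 4 (adjusted p 0.0526 to 0.0953). Gata3 was called without any 1 array, but not with only numbers 4 to 6 (adjusted p = 0.157). Over alone, Gata3 was not called with only numbers 4 and 5 (adjusted p = 0.361). In the gene arrays 0 of 19 were called in any comparison.

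The counts of this paragraph stand against 4.55% of all genes called. Among 13 other intermediate filament genes, Nefl, a neurofilament chain at a level under the array median, rose by 0.34 ± 0.08 with platelets over alone on the exon arrays (adjusted p = 0.0256). The call was lost without alone 2 or 4 or platelets 2 or 5 (adjusted p 0.0549 to 0.0666). Vim, the filament of mesenchymal cells, gave 0.20 ± 0.74 and did not pass. Of 5 markers of suprabasal skin, 1 fell on the exon arrays (Sbsn, by 0.43 ± 0.10, adjusted p = 0.0252), and Krt1, Lor and Ivl stayed under the array median in every group. Of 10 leukocyte markers Laptm5 and Csf1r rose with platelets over alone, and 0 of 4 erythroid and 0 of 7 fibroblast markers were called there. In the lysis mix, where platelet RNA was present without culture, Krt14 lay within the range of cells alone on the exon arrays. All lysis mixes, numbered 4 to 6, lay below alone 4 and 5. No such mix was analysed on the gene arrays.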

How the data were processed

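Gene expression was measured on 13 Affymetrix exon arrays and 12 gene arrays. Per the submitters' processing notes, the authors processed the exon arrays with Partek 6.4 and the gene arrays with Partek 6.5, both with RMA, and the deposited values are log2 probe set levels. Background and summary options are not given in the sources used here. The labelling kits also differ per the labels, and since the array types were normalized apart, each was tested on its own.

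Among probe sets with 1 symbol, the one brightest on average over the table stood for its gene. All groups of an array type were fitted together with limma 3.58.1 in R 4.3.3, with adjustment over all genes. The fits were tested on simulated data. The keratins and all other lists were chosen with earlier results of these data known. From each other list the called genes were named, at most the 4 with the largest difference; Cldn4, Sbsn, Laptm5, Csf1r and uncalled genes were added after their values were seen.

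Samples sharing a replicate number were checked for joint deviations. Correlations were 0.442, 0.287 and 0.362 between gene arrays with platelets and alone, and 0.381, 0.304 and 0.292 between releasate and alone. In those groups same-numbered samples thus tended to deviate together, but the labels do not say what the numbers mark, and pairing is not established. Lysis and alone share only 2 numbers (0.652 and 0.440), too few to settle pairing. In the other comparisons at least 1 correlation was under 0.1. Alternatives covered normalization, probe set choice, a filter on dim genes, array weights, the variance prior, blocks, sample subsets and leaving out each array.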

Additional observations from a re-analysis of the deposited data

Results flagged for a closer look

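Of 16 groups of 5 samples tested for an array that stands apart, 1 had one, and chance gives about 1 in 20 groups. On the exon arrays Krt17 in cells alone read 4.21 in sample 4, while the other 4 samples lay between 3.93 and 3.97. With that array the difference of platelets over alone was 0.31 (adjusted p = 0.0653), and without it 0.36 (adjusted p = 0.0347).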

How the results depend on the processing

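The keratin calls were recounted under each alternative, and no Krt14 difference from cells alone with platelets or the pellet turned its sign. For platelets over alone on the exon arrays (1 keratin called), 2 were called with the replicate block, with array weights and with the set of numbers as a block, in each case Krt14 and Krt17 (Krt17 adjusted p = 0.0294, 0.0222 and 0.0149), and 0 with only numbers 4 and 5. Leaving out 1 array gave 1 to 2. For platelets over lysis (1 called), 3 were called with array weights (Krt14, Krt17 and the luminal Krt8, at 0.25 with adjusted p = 0.0485), 2 with the set of numbers as a block and 0 with only numbers 4 to 6 (Krt14 1.36, adjusted p = 0.101). Leaving out 1 array gave 0 to 1. For platelets over alone on the gene arrays (1 called), 0 were called with equal array medians (Krt14 adjusted p = 0.0502), with the trended and robust variance prior (0.0600) and without alone 8 and platelets 9. Leaving out 1 array gave 0 in all 6 cases, and fewer arrays were then fitted. For pellet over alone (0 called), 1 was called with the replicate block (Krt14 adjusted p = 0.0135), array weights (0.00515), or the block without pellet 7 (0.00547), and leaving out 1 array gave 0 to 1. The replicate block also called 1, Krt14, for platelets over releasate (adjusted p = 0.0188), and the block without pellet 7, an alternative chosen after seeing the data, called 1 for pellet over releasate (0.0326). For the other changes the cause was not tested.

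Of 1197 fits of keratins other than Krt14 under alternatives, 7 passed. In the whole tables the counts called moved more: from 864 to between 1 and 1750 for platelets over alone, 699 to 70 to 4402 for platelets over lysis and 9 to 1 to 231 for lysis over alone on the exon arrays. On the gene arrays they moved from 133 to between 30 and 464, or 21 to 119 on leaving out 1 array, for platelets over alone, 83 to 34 to 501 (8 to 133) for pellet over alone, 9 to 0 to 98 for platelets over releasate and 1 to 0 to 57 for pellet over releasate. They stayed at 0 for releasate over alone and platelets over pellet, with 563 and 503 genes at an unadjusted p under 0.05. Numbers shared by platelets and alone on the exon arrays were not taken to pair them (correlations of -0.255, 0.480, 0.501, 0.0613 and 0.583), nor those of platelets and lysis (-0.0455 and 0.502), and the block called 1326 and 472 genes. For platelets over lysis the block ended the calls of Lama3 (adjusted p = 0.0618), Ehf (0.0748), Elf3 (0.108) and Cldn4 (0.184), and the set of numbers as a block those of Elf3 (0.0614) and Cldn4 (0.0552).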
